A study of Mus musculus with 503 samples.

Results

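Genes of the interferon response and of major histocompatibility complex (MHC) class I antigen presentation were followed in single perivascular cells of the mouse spinal cord: *H2-K1*, *H2-D1*, *B2m*, *Ifitm3*, *Ifit1*, *Ifit3*, *Bst2*, *Irf7* and *Isg15*. They were taken by symbol, and these 9 of the 56701 gene rows in the deposited counts were described across groups, plates and cells. Adult mice, all labelled female although the study's reporting gives both sexes for sequencing, carried GLAST-CreERT2, R26R-tdTomato and Pdgfrb-eGFP. GLAST (*Slc1a3*) drives a tamoxifen-dependent Cre that switches on tdTomato for good, and the *Pdgfrb* reporter gives EGFP in fibroblasts around vessels, in pericytes and in vascular smooth muscle cells (vSMCs). Tamoxifen was given to all animals, and a cell that expressed GLAST without recombining remained tdTomato-. Cells were sorted as tdTomato+EGFP+ or tdTomato-EGFP+ from uninjured cord, or from the lesion segment 3 days after a complete crush (spinal cord injury, SCI), and profiled by Smart-seq3, a full-length single-cell RNA method. The labels give day 3, while the design text of the series names day 5, and the labels were followed. The labels cover 503 cells in 4 groups of sort by treatment. Animals are not named in the labels, so a group counted as 1 sample, no test was possible, and plates served as the only (technical) spread.

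After removal of 34 endothelial-marked cells and 1 poor cell, 468 cells were kept, with 25645409 to 38406035 counts per group. Plates 209 and 213 held uninjured cells (65 and 72 tdTomato+EGFP+, 46 and 60 tdTomato-EGFP+) and plates 211 and 215 injured cells (88 and 34 tdTomato+EGFP+, 58 and 45 tdTomato-EGFP+), so that injury and plate cannot be told apart. The 34 injured tdTomato+EGFP+ cells of plate 215 were shallow, with a median of 14770 counts per cell against 328802 for the 88 cells of plate 211, and the summed values of this group therefore follow plate 211. Plate 211 also carried gene symbols that other plates lacked and lacked others, but all 9 genes had counts on every plate. Against their label as perivascular cells, the groups (uninjured tdTomato+EGFP+ and tdTomato-EGFP+, then the injured ones in that order) were at 11104, 12234, 730.0 and 11318 CPM (counts scaled to a common total) for 9 summed pericyte markers and at 4214, 2205, 21865 and 9659 CPM for 8 fibroblast markers. The injured tdTomato+EGFP+ cells were thus low in pericyte markers, and 6 cycling markers summed to 1167 CPM there against 8.33 CPM in uninjured tdTomato+EGFP+ cells. Endothelial markers were present in every group and were lower after injury, a difference that is given beside the results below.

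MHC class I molecules display peptides from inside the cell to cytotoxic T cells. *H2-K1* and *H2-D1* encode the classical heavy chains K and D, and *B2m* encodes the light chain, beta-2-microglobulin, without which the heavy chains do not reach the surface. Type I interferons signal through the IFNAR receptor, the kinases JAK1 and TYK2, and transcription factors such as IRF9 that act at the interferon-stimulated response element (ISRE) in target promoters. Among those targets are *Ifit1* and *Ifit3*, which restrict foreign RNA, *Ifitm3*, which blocks viral entry, *Bst2* (tetherin), which holds virus particles at the cell surface, *Isg15*, a ubiquitin-like modifier, and *Irf7*, a transcription factor that amplifies interferon production. Endothelial cells of the central nervous system are known to express MHC class I without stimulation.

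Positions are those of the whole genes in the mm10 assembly (GENCODE annotation). *H2-K1* (chr17:33996017-34000347) and *H2-D1* (chr17:35262730-35267499) belong to the MHC on chromosome 17, *Ifit1* (chr19:34640871-34650009) and *Ifit3* (chr19:34583531-34588731) are neighbours on chromosome 19, and *Ifitm3* (chr7:141009586-141010770) and *Irf7* (chr7:141262706-141266481) lie on chromosome 7. *B2m* is at chr2:122147686-122153083, *Bst2* at chr8:71534255-71537456 and *Isg15* at chr4:156199424-156200818. The region upstream of the start site of each gene was read from RefSeq (GRCm38.p6, the mm10 sequence), since an ISRE is the feature through which these genes are known to respond. RefSeq starts can differ from the GENCODE ones: that of *H2-D1* lies downstream of the GENCODE start, so the stretch shown for it is inside the gene as given above. The stretches that hold a match are shown 5′ to 3′ on the strand of the gene, and capitals mark the ISRE core (GAAA, any 2 bases, GAAA) or the shorter core GAANNGAAA, each searched on both strands.
B2m, chr2:122147527-122147686, plus strand: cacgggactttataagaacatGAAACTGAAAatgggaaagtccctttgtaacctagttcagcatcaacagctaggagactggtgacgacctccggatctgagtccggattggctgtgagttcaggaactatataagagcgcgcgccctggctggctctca
Ifit1, chr19:34640729-34640888, plus strand: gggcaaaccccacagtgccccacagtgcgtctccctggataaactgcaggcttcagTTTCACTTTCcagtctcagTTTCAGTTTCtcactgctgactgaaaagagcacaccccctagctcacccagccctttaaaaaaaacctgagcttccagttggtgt
Ifit3, chr19:34583369-34583528, plus strand: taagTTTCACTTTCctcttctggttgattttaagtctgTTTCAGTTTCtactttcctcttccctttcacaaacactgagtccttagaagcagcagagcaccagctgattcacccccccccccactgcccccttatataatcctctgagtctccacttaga
Bst2, chr8:71537473-71537632, minus strand: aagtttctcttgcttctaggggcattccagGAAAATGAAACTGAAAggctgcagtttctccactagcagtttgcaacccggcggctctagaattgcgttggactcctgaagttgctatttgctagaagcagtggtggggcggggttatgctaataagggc
Isg15, chr4:156200819-156200978, minus strand: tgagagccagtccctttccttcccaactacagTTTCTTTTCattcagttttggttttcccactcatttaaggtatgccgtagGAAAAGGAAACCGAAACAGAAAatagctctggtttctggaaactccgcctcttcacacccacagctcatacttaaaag
H2-K1, chr17:34000348-34000507, minus strand: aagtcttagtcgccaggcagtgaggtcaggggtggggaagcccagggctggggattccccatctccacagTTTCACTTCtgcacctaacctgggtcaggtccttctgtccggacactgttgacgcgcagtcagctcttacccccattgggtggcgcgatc
H2-D1, chr17:35262934-35262963, plus strand: atctcctcagTTTCACTTCtgcacctaacc

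Within 250 bases upstream of the start, the ISRE core was found in 5 of the 9 genes (*B2m*, *Ifit1*, *Ifit3*, *Bst2* and *Isg15*), against 2.977% of 32851 mouse promoters. *Ifit1* and *Ifit3* each held it at 2 separate places, and in *Bst2* and *Isg15* the matches overlapped one another. GAANNGAAA was found in *H2-K1*, *H2-D1* and, beside its longer matches, *Isg15*, and in 6.31% of all promoters. *H2-K1* and *H2-D1* share an identical run of 40 bases around it. The palindrome TTCNNNGAA of gamma-activated sites, carried by 7.02% of promoters, occurred in *Bst2* alone, overlapping its first ISRE match. *Ifitm3* and *Irf7* had no match to these letters in that window, which says nothing about binding there. These matches are descriptions of sequence and were not related to the levels below.

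In the uninjured cord both sorted populations expressed all 9 genes. Per kilobase of annotated exon, *Ifitm3* was the highest member in uninjured tdTomato+EGFP+ cells (944 CPM per kb), followed by *B2m* (878), *H2-D1* (565) and *H2-K1* (355). The other 5 genes were lower, from 174 CPM per kb for *Isg15* to 42.1 for *Ifit1*, and the order was the same in uninjured tdTomato-EGFP+ cells. After injury *Ifitm3* and *B2m* still led in both populations, whereas *H2-K1* had rank 7 of 9 in tdTomato+EGFP+ cells (38.2 CPM per kb) and rank 5 in tdTomato-EGFP+ cells (131.9). Ranks between *H2-K1* and *H2-D1* assume that reads of these similar genes, and of their relatives in the MHC, were assigned to the right one. How shared reads were counted is not given in the sources used here. Dividing by length also assumes reads from the whole transcript, and whether reads or molecules were counted is not given either. For *Irf7* the exon length used, 3776 bases, spans the whole gene as placed above, so the ranks depend on the annotation.

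Differences between the sorted populations in the uninjured cord (tdTomato+EGFP+ minus tdTomato-EGFP+, on the log2(CPM + 1) scale) ran from -0.21 for *Ifit1* to 0.57 for *Ifit3*. A gene was called where this difference was 1 or more in size in the summed counts, the higher group was at 10 CPM or more, and the direction was the same on both plates (for injury, in all 4 pairings of injured with uninjured plates). By this rule of size, which is not a test, 0 of the 9 genes were called between the uninjured populations, where 4.29% of all genes were called higher and 3.6% lower in tdTomato+EGFP+ cells. The 3 MHC class I genes were higher on both plates in the tdTomato+EGFP+ sort, by 0.10 (*H2-K1*), 0.16 (*H2-D1*) and 0.24 (*B2m*). *Ifit3* differed most, at 179 CPM (95% interval 175 to 183) against 120.2 CPM (116.1 to 124.5). Intervals given with levels are exact Poisson intervals, and those with shares of cells exact binomial (Clopper-Pearson) intervals. Both cover counting error only, and reads amplified by PCR are not independent molecules.

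**Figure D1:**
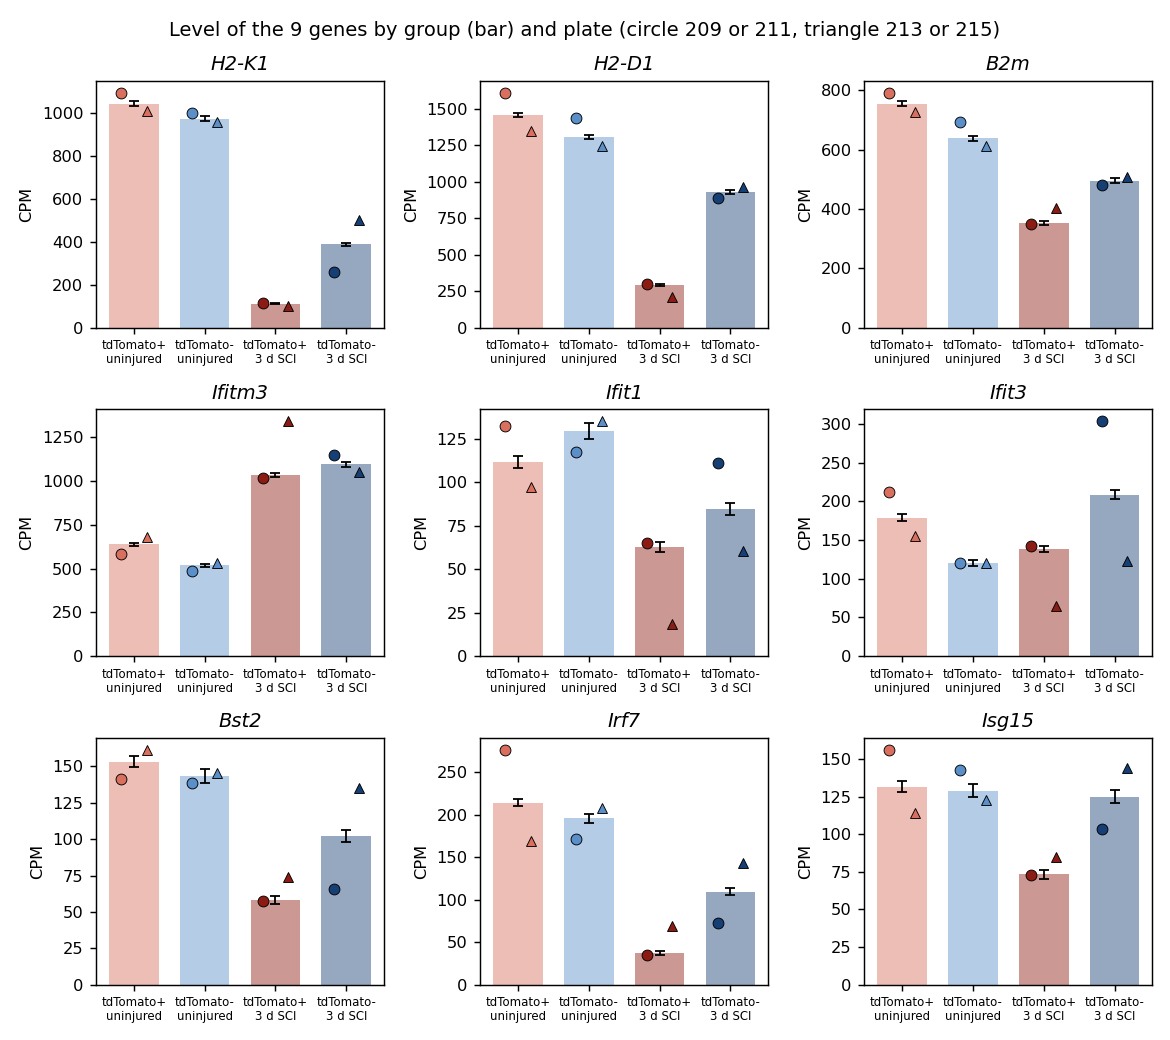
Level of each gene in the summed counts of each group (bar, CPM, linear axis from 0, with the 95% Poisson interval) and on each plate (circles, plates 209 and 211; triangles, plates 213 and 215). *H2-K1*, *H2-D1*, *B2m* and *Irf7* are lowest in injured tdTomato+EGFP+ cells, and *Ifitm3* is higher in both injured groups than in both uninjured groups.

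At 3 days after injury the MHC class I heavy chains were far lower in tdTomato+EGFP+ cells. *H2-K1* was at 1043 CPM (95% interval 1032 to 1053) before and 112.1 CPM (108.4 to 115.9) after injury, a log2 difference of -3.21 (-3.40 to -3.15 over the 4 plate pairs). *H2-D1* was at 1458 CPM (1446 to 1469.9) and 292 CPM (286 to 298), a difference of -2.32 (-2.95 to -2.18). The light chain *B2m* differed less, at 755 CPM (746 to 764) and 353 CPM (347 to 360.0), or -1.09 (-1.17 to -0.85). Plates did not overlap between the treatments for any of these genes: *H2-K1* was at 1093 on plate 209 and 1006 on plate 213, against 112.6 on plate 211 and 102.6 on plate 215. *H2-D1* was at 1610.2 on plate 209 and 1348 on plate 213, against 296 on plate 211 and 208 on plate 215, and *B2m* was at 792 on plate 209 and 728 on plate 213, against 350.5 on plate 211 and 404 on plate 215. All 3 genes were called lower. In this comparison 34.1% of all genes were called lower and 11.4% higher, and the median of all genes tested was -0.57, so a gene that lay lower was common. Relative to that median, the differences were -2.63 for *H2-K1*, -1.75 for *H2-D1* and -0.52 for *B2m*. With TMM scaling, which centres the typical gene, 21.4% of all genes were called lower and 18.8% higher. *B2m* then differed by -0.54 and no longer reached log2 1 (nor did it without plate 211, at -0.90), whereas *H2-K1* (-2.66) and *H2-D1* (-1.77) did. Among the few cells of at most 1200 detected genes, the upper limit in the study's methods, 10 uninjured and 10 injured tdTomato+EGFP+ cells remained, all shallow, and *H2-K1* differed by 0.42.

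In tdTomato-EGFP+ cells *H2-K1* was also called lower after injury, and *H2-D1* and *B2m* were not called. *H2-K1* was at 972 CPM (95% interval 960.3 to 984) in uninjured and 388 CPM (379.9 to 395) in injured cells, a log2 difference of -1.32 (-1.93 to -0.93). The injured plates lay apart, at 261 CPM on plate 211 and 502 on plate 215, both under the 1001 and 958 of the uninjured plates. Without plate 211 the difference was -0.95, just short of the call. *H2-D1* was at 1307 CPM (1293 to 1320.3) and 929 CPM (917 to 941), and *B2m* at 638 CPM (629 to 648) and 496 CPM (487 to 504). Their differences of -0.49 and -0.36 had the same direction in all 4 plate pairs but did not reach log2 1. Here 16.3% of all genes were called lower and 9.92% higher, and the median over all genes was -0.19. The heavy chains also shifted against each other. Per 100 counts of *H2-D1* there were 67.9 and 74.7 counts of *H2-K1* on the plates of uninjured tdTomato+EGFP+ cells. In uninjured tdTomato-EGFP+ cells the ratio was 69.5 and 77.1. After injury the ratio was 38.01 and 49.3 (tdTomato+EGFP+) and 29.4 and 52.1 (tdTomato-EGFP+), below every uninjured plate. Among uninjured tdTomato-EGFP+ cells with summed endothelial markers under 100 CPM, *H2-K1* was at 394 CPM and *H2-D1* at 781 CPM. The ratio thus also varied among uninjured cells.

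Endothelial markers were lower after injury in both populations, as were pericyte markers in tdTomato+EGFP+ cells. The 8 endothelial markers summed to 6118 CPM (tdTomato+EGFP+) and 6751 CPM (tdTomato-EGFP+) in uninjured cells, with all 8 markers at 10 CPM or more. In injured cells they summed to 398 CPM (7 of 8 at 10 CPM or more, 0 at 0) and 2096 CPM (8 of 8). The junction gene *Cdh5* alone, at 171 CPM, made up much of the sum in injured tdTomato+EGFP+ cells, and *Pecam1* was at 24.3 CPM there against 540.3 in uninjured tdTomato+EGFP+ cells. Without every cell whose markers summed to 100 CPM or more, 14, 18, 33 and 29 cells were left in the 4 groups. Among these, the injury difference of *H2-K1* in tdTomato+EGFP+ cells was -2.44, that of *H2-D1* -2.18 and that of *B2m* -0.56, so the heavy chains still differed by more than log2 1. In tdTomato-EGFP+ cells the same step left -0.16 for *H2-K1*, 0.14 for *H2-D1* and 0.34 for *B2m*, and the lower *H2-K1* of the injured cells was no longer seen. The step took out most uninjured cells of both sorts. Most uninjured cells lay in clusters 2 and 5 described below, which raised endothelial and pericyte markers together. The vSMC-like cluster 7, without raised endothelial markers, held 3 uninjured tdTomato+EGFP+ and 14 uninjured tdTomato-EGFP+ cells. Whether the cells left were of the same types in each group was not tested, for the injury differences or for those between the sorts. Uninjured tdTomato-EGFP+ cells under the limit had *H2-K1* at 394 CPM against 1088 in those above it. Between the 14 and 18 uninjured cells under the limit, *H2-K1* (1.01), *Ifit1* (1.35), *Bst2* (1.40), *Irf7* (1.93) and *Ifit3* (4.53) then differed by over log2 1, with more in the tdTomato+EGFP+ sort. Among the 14 tdTomato+EGFP+ cells, 1 cell held 269 of 536 *Irf7* counts and 389 of 1029 *Ifit3* counts. The median cells of the 14 and the 18 had *Irf7* at 0.78 and 0 CPM and *Ifit3* at 38.6 and 0 CPM. In injured tdTomato-EGFP+ cells the levels of *H2-K1* under and above the limit were 352 and 404 CPM. The 34 cells that had been removed as endothelial, 32 of them uninjured, held *H2-K1* at 1472 CPM and *H2-D1* at 2002 CPM. Leukocyte markers were scarce, with 15 genes summing to 116.4, 62.4, 21.3 and 49.2 CPM, *Ptprc* at 1.48 CPM or less in every group, and *S100a9* at 0 in both injured groups.

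Of the interferon-induced genes, *Ifitm3* was the one that was higher after injury in both populations. It was at 640.0 CPM (95% interval 632 to 648) and 518 CPM (509.5 to 527) in uninjured tdTomato+EGFP+ and tdTomato-EGFP+ cells, and at 1037 CPM (1026 to 1048) and 1096 CPM (1083 to 1109) in the injured ones. The injured plates, from 1019.5 to 1342 CPM, all lay above the uninjured ones, from 484 to 679 CPM. The log2 difference was 1.08 (0.97 to 1.24) in tdTomato-EGFP+ cells, which was called, and 0.70 (0.59 to 1.19) in tdTomato+EGFP+ cells, which was not. Relative to the median gene both came to 1.27, and with TMM scaling the tdTomato+EGFP+ difference was 1.24 and *Ifitm3* was called higher in both populations. Without plate 211 the tdTomato+EGFP+ difference was 1.07. The share of cells with *Ifitm3* was near complete throughout, so this was a difference of level in most cells, with cell medians of 681, 544, 922 and 1052 CPM in the same order.

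*Irf7* and *Bst2*, 2 of the 6 interferon-induced genes, were called lower after injury in tdTomato+EGFP+ cells. That share was near the 34.1% of all genes called lower there, where the median gene lay at -0.57. The amplifier *Irf7* was at 215 CPM (95% interval 209.9 to 219) in uninjured and 36.8 CPM (34.7 to 39.004) in injured tdTomato+EGFP+ cells, a log2 difference of -2.51 (-2.95 to -1.29). Plates were at 277 and 169.7 CPM before, and 35.001 and 68.6 CPM after injury, without overlap, and without plate 211 the difference was -1.63. In tdTomato-EGFP+ cells *Irf7* was at 196 CPM (191 to 201) and 109.3 CPM (105.3 to 113.4), a difference of -0.84 (-1.51 to -0.26) that was not called. One injured cell held 32.2% of the *Irf7* counts of that group, and with the top cell of each group left out the difference was -1.30. Without cells of leukocyte markers at 100 CPM or more it was -1.52, and without plate 215 -1.43. Without cells of endothelial markers at 100 CPM or more, it was -1.68 in tdTomato+EGFP+ and 0.23 in tdTomato-EGFP+ cells. *Bst2* was at 153.2 CPM (149.3 to 157.1) and 58.2 CPM (55.6 to 60.9) in tdTomato+EGFP+ cells, a difference of -1.38 (-1.48 to -0.93). With TMM scaling it was -0.84 and *Bst2* was no longer called, whereas *Irf7* was. In tdTomato-EGFP+ cells *Bst2* was at 143.3 CPM (138.8 to 147.9) and 102.01 CPM (98.1 to 105.99). The injured plates there differed, at 65.7 CPM on plate 211 and 134.9 CPM on plate 215, the latter close to the uninjured plates. The difference of -0.49 was not called, and without plate 215 it was -1.11.

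*Ifit1*, *Ifit3* and *Isg15* were not called in either population. *Isg15* was at 131.7 CPM (95% interval 128.1 to 135.4), 129.2 CPM (124.9 to 133.6), 73.4 CPM (70.4 to 76.5) and 124.9 CPM (120.6 to 129.3) in the order used above. The intervals of all groups but the injured tdTomato+EGFP+ one overlapped, and injured tdTomato+EGFP+ cells were lower, with a difference of -0.83 (-1.09 to -0.41) from the uninjured cells of that sort. On the plates of tdTomato+EGFP+ cells *Isg15* was at 156.4 on plate 209 and 113.98 on plate 213, against 72.8 on plate 211 and 85.3 on plate 215. The *Isg15* difference reached log2 1 without the top cell of each group (-1.16) and without plate 213 (-1.08). *Ifit1* was at 111.9 CPM (108.5 to 115.3) and 62.8 CPM (60.1 to 65.7) in tdTomato+EGFP+ cells and at 129.5 CPM (125.2 to 133.9) and 84.7 CPM (81.2 to 88.4) in tdTomato-EGFP+ cells. Plates of tdTomato+EGFP+ cells were at 132.4 on plate 209 and 97.05 on plate 213, against 65.4 on plate 211 and 18.5 on plate 215. Those of tdTomato-EGFP+ cells were at 117.5 on plate 209 and 135.2 on plate 213, against 111.4 on plate 211 and 60.5 on plate 215. Every injured plate thus lay below the uninjured plates of its sort, though the differences of -0.82 and -0.61 did not reach log2 1. A single cell held 32.3% and 40.2% of the injured *Ifit1* counts, and without the top cell of each group the differences were -1.25 and -1.13. They were -2.53 and -1.08 without plate 211, and turned to 0.56 and 0.41 without cells of endothelial markers at 100 CPM or more. Without plate 213 that in tdTomato+EGFP+ cells was -1.06. *Ifit3* was at 138.3 CPM (134.2 to 142.5) in injured tdTomato+EGFP+ cells and 209 CPM (203 to 214) in injured tdTomato-EGFP+ cells. Against the uninjured levels given above, that was -0.37 (-1.71 to -0.12) in tdTomato+EGFP+ and 0.79 (0.024 to 1.33) in tdTomato-EGFP+ cells. Plates of tdTomato+EGFP+ cells were at 212 on plate 209 and 155.2 on plate 213, against 142.5 on plate 211 and 64.4 on plate 215. Those of tdTomato-EGFP+ cells were at 119.8 on plate 209 and 120.4 on plate 213, against 304 on plate 211 and 122.5 on plate 215, so that the lowest and the highest levels both came from injured cells. With TMM scaling the difference in tdTomato+EGFP+ cells turned to 0.18. Single cells carried much of the *Ifit3* sums: without the top cell of each group the differences were -1.42 and 0.33. Without plate 211 the first was -1.46, and without plate 215 the second was 1.33. Counts of *Ifit3* and its near-identical neighbour *Ifit3b* may have been exchanged in counting. *Ifit3b* was at 73.3, 42.4, 52.9 and 56.3 CPM and was not called in any comparison.

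**Figure D2:**
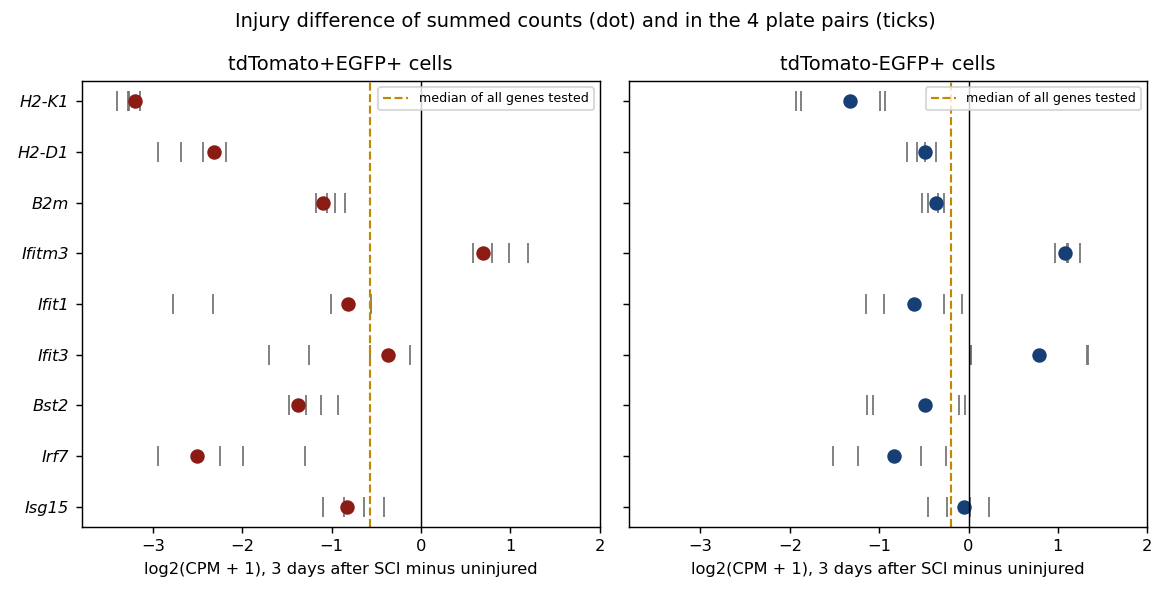
Difference between cells 3 days after SCI and uninjured cells on the log2(CPM + 1) scale for each gene, in tdTomato+EGFP+ cells (left) and tdTomato-EGFP+ cells (right). Dots are summed counts, ticks the 4 pairings of injured with uninjured plates, and dashed lines the medians of all genes tested (-0.57 and -0.19). *H2-K1* lies at -3.21 on the left and -1.32 on the right, and *Ifitm3* is the only gene right of 0 in every plate pair on both sides.

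After injury 3 of the 9 genes were called between the sorted populations. Before injury 0 were called, when fewer genes of any kind were called (4.29% of all genes higher and 3.6% lower). *H2-K1* (-1.78), *H2-D1* (-1.67) and *Irf7* (-1.54) were called lower in injured tdTomato+EGFP+ than in injured tdTomato-EGFP+ cells, where 18.6% of all genes were called lower and 4.47% higher. The plates gave -2.28 to -1.21 for *H2-K1* and -2.21 to -1.58 for *H2-D1*. For *Irf7* they gave -1.05 to -1.02, outside which the summed value falls because the populations weight the plates differently. Without cells of endothelial markers at 100 CPM or more, which left 33 and 29 cells, the *Irf7* difference was 0.014. It was -0.91 without cells of leukocyte markers at 100 CPM or more. The cause of these changes was not tested. The differences of *B2m* (-0.49), *Bst2* (-0.80) and *Isg15* (-0.76) had the same sign on both plates without reaching log2 1. *Ifitm3* differed by -0.080, with opposite directions on the plates. The injury differences of the populations were also set against each other (tdTomato+EGFP+ minus tdTomato-EGFP+). *H2-K1* (-1.88), *H2-D1* (-1.83), *Irf7* (-1.67) and *Ifit3* (-1.16) were called lower, against 20.9% of all genes called lower and 4.78% higher. With TMM scaling *H2-K1*, *H2-D1* and *Irf7* were again called in both comparisons and *Ifit3* was not. *Ifit3* also missed the call without plate 209 (-0.95), and *Irf7* without cells of leukocyte markers at 100 CPM or more (-0.93). For *B2m* this difference was -0.73, and for *Ifitm3* -0.38.

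Single cells showed different forms of expression for the MHC class I genes and for several of the inducible genes. To compare cells of unequal depth, each was thinned to 20000 counts, which left out 10, 14, 22 and 1 shallower cells of the 4 groups and kept 421. All 3 MHC class I genes were detected in 95.3% (90.001 to 98.2) of tdTomato+EGFP+ and 91.3% (83.6 to 96.2) of tdTomato-EGFP+ cells before injury. After it the shares were 57% (46.7 to 66.9) and 84.3% (75.8 to 90.8). *H2-K1* itself was detected in 65% (54.8 to 74.3) of the injured tdTomato+EGFP+ cells but in 95.3% (90.001 to 98.2) of the uninjured ones, whereas *B2m* was detected in 98% (92.96 to 99.8) and 100% (97.1 to 100). Without thinning, *H2-K1* had a count in 77.9% and 94.2% of these cells. The lower sums reflected most cells and not a few: the median cell had *H2-K1* at 993 CPM (quartiles 606 and 1487) in uninjured and 56.1 CPM (22.01 and 123.7) in injured tdTomato+EGFP+ cells. In tdTomato-EGFP+ cells the medians were 889 and 223 CPM. The upper quartile of injured tdTomato+EGFP+ cells thus lay below the lower quartile of uninjured ones.

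*Ifit1*, *Ifit3*, *Irf7* and *Isg15* were patchy, unlike the inducible gene *Ifitm3*, which nearly all cells expressed. Among uninjured cells *Ifit3* was detected in 53.5% (44.5 to 62.4) (tdTomato+EGFP+) and 46.7% (36.3 to 57.4) (tdTomato-EGFP+), and among injured cells in 21% (13.5 to 30.3) and 35.3% (26.1 to 45.4). *Irf7* followed the same order, with 57.5% (48.4 to 66.2) and 54.3% (43.6 to 64.8) before and 20% (12.7 to 29.2) and 31.4% (22.5 to 41.3) after injury. Fewer injured than uninjured cells of each sort thus had a count of these genes at equal depth. *Isg15* was detected in 60.6% (51.6 to 69.2), 61.96% (51.2 to 71.9), 24% (16.02 to 33.6) and 38.2% (28.8 to 48.4), although its summed level in injured tdTomato-EGFP+ cells differed from the uninjured one by -0.049 only. *Ifit1* was the rarest, from 42.4% (32.1 to 53.1) of uninjured tdTomato-EGFP+ to 11% (5.62 to 18.8) of injured tdTomato+EGFP+ cells.

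**Figure D3:**
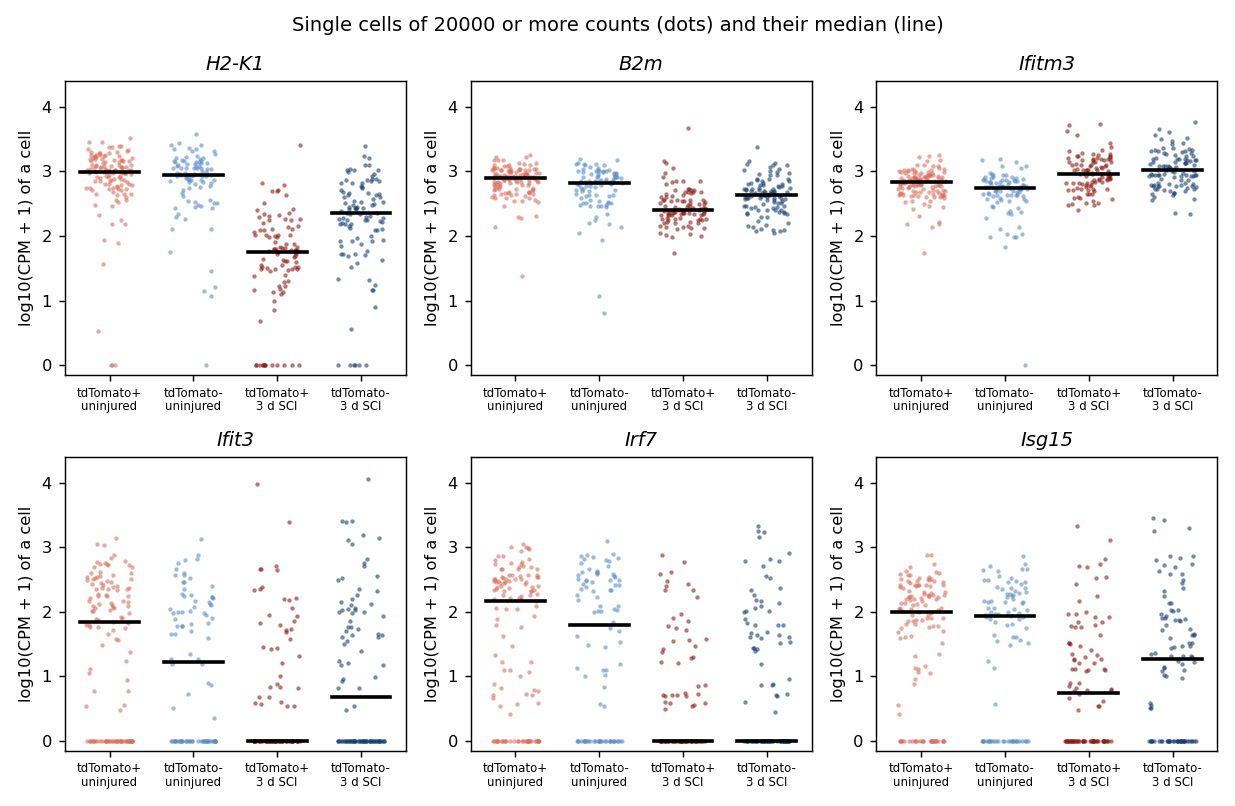
Level of 6 of the genes in each cell of 20000 or more counts (dots, log10(CPM + 1), spread sideways for display) with the median of each group (line). *H2-K1* is shifted as a whole in injured tdTomato+EGFP+ cells (median 56.1 CPM), while *Ifit3* and *Irf7* in the injured groups combine many cells at 0 with a few cells that reach the highest values of the plot.

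A small set of cells expressed the inducible genes together. All 6 of them (*Ifitm3*, *Ifit1*, *Ifit3*, *Bst2*, *Irf7* and *Isg15*) were detected in 23 and 18 uninjured cells (tdTomato+EGFP+, then tdTomato-EGFP+) and in 9 and 13 injured cells. The binomial intervals of these shares overlapped, at 18.1% (11.8 to 25.9), 19.6% (12.03 to 29.1), 9% (4.20 to 16.4) and 12.7% (6.96 to 20.8). The other end differed more: exactly 1 of the 6 was detected in 6.30% (2.76 to 12.03) and 11.96% (6.12 to 20.4) before, and in 43% (33.1 to 53.3) and 27.5% (19.1 to 37.2) after injury. The 9 injured tdTomato+EGFP+ cells with all 6 genes held 92.9% of the *Ifit1* counts, 88.6% of the *Ifit3* counts and 66.6% of the *Irf7* counts of the deep cells of their group, with 8.31% of all counts. In injured tdTomato-EGFP+ cells the 13 such cells held 88.5%, 79.1% and 74.3%, with 9.65% of all counts. Before injury the shares were 63.8%, 42.2% and 26.6% in tdTomato+EGFP+ cells, with 18.96% of all counts, and 69.4%, 70.2% and 39.6% in tdTomato-EGFP+ cells, with 22.3% of all counts. In every group these cells were chosen by the same genes whose counts are given, so the shares describe concentration only. *Ifitm3* was less concentrated, with 16.7% and 18.5% of its counts in the same injured cells, still above their shares of all counts.

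The cell with the most *Ifit3* in each injured group was sorted on plate 211. The tdTomato+EGFP+ one held *Ifit3* at 9518 CPM (2418 of its 254035 counts), which was 56.2% of the counts of the group. It also had *Ifit1* at 2362, *Isg15* at 2109.9 and the chemokine *Cxcl10* at 732 CPM. The tdTomato-EGFP+ one held *Ifit3* at 11446 CPM (2186 of 190988 counts, 40.9% of the group), with *Ifit1* at 4576, *Ifitm3* at 4597 and *Cxcl10* at 3769.9 CPM. In both cells *Ptprc*, *Pecam1* and the ligand *Ifnb1* were at 0 counts and *Pdgfrb* was at 4271 and 4838 CPM, while their endothelial markers summed to 268 and 168 CPM, above the limit of 100 CPM used above. *H2-K1* was at 114.2 and 178 CPM in these cells, against medians of 56.1 and 223 CPM in their groups, and so was above the median in the first and below it in the second. *H2-D1* was at 1417 and 1979 CPM, above the medians of 166 and 705 CPM of their groups. By contrast the highest *Ifit3* of an uninjured cell was 1405 CPM (tdTomato+EGFP+) or 1328 CPM (tdTomato-EGFP+).

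Across the 421 deep cells, after subtraction of the mean of each plate and population, the genes were compared in pairs. The MHC class I and the inducible set were fixed beforehand and not found from these correlations. Pearson correlations of ln(1 + counts per 10000) were 0.63 to 0.69 among *H2-K1*, *H2-D1* and *B2m*, and 0.39 to 0.71 (median 0.52 of 15 pairs) among the inducible genes, highest for *Ifit1* with *Ifit3*. The 18 pairs of 1 gene from each set gave 0.24 to 0.58 (median 0.37), highest for *B2m* with *Ifitm3*. These ranges overlapped, and *Ifitm3* correlated more with *B2m* (0.58) than with any inducible gene (0.39 to 0.47). The cells share libraries and counting depth, and those values are descriptions. Of 11736 genes outside the lists that were detected in at least 20% of cells, *Ly6a* (0.70), *Itm2a* (0.70), *Ly6c1* (0.67), *Selenop* (0.66) and *Pltp* (0.65) were most like the mean of the MHC class I genes. *Rnf213* (0.60), *Tgtp2* (0.56), *Olfr56* (0.53), *Gm11626* (0.51) and *Gm20496* (0.49) were most like the mean of the inducible genes. Summed endothelial markers correlated at 0.57 with the MHC class I mean and at 0.35 with the inducible mean, and pericyte markers at 0.30 with each. Fibroblast (-0.25 and -0.22), cycling (-0.27 and -0.21) and vSMC markers (-0.24 and -0.057) correlated negatively. Leukocyte markers (0.071 and 0.10) and total counts (-0.058 and -0.078) correlated weakly.

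Cells were clustered without the 9 genes and their pathway lists, which gave 7 clusters (3 at a resolution of 0.3). Cluster 1 (100 injured tdTomato+EGFP+, 17 injured tdTomato-EGFP+ and 20 uninjured cells) was high in all 6 cycling and 6 of 8 fibroblast markers, and cluster 3 (71 cells) was fibroblast-like. Clusters 4 (48 cells, 47 of them injured tdTomato-EGFP+) and 6 (34 cells) were pericyte-like, and cluster 7 (18 cells) was vSMC-like. Clusters 2 (with 62 uninjured tdTomato+EGFP+ and 50 uninjured tdTomato-EGFP+ cells) and 5 (42 cells) raised all 8 endothelial markers together with 8 and 4 of 9 pericyte markers and were left unnamed. *H2-K1* was highest in those last clusters, at 1199 and 1214 CPM, next in the pericyte-like cluster 6 (758 CPM) and the fibroblast-like cluster 3 (584 CPM). It was at 241 CPM in the vSMC-like cluster and 219.6 CPM in the injured pericyte-like cluster 4, and lowest in cluster 1, at 93.7 CPM. *H2-D1* and *B2m* were highest in cluster 5 too, while *Ifitm3* was highest in cluster 4 (1254 CPM) and lowest in cluster 7 (324 CPM). *Ifit3* was highest in cluster 4, at 551 CPM, though the median cell there had 0 and 1 cell held 38.8% of its counts. Both injured cells with the most *Ifit3* lay in this cluster, and the tdTomato+EGFP+ one was the 1 cell of its group there.

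**Figure D4:**
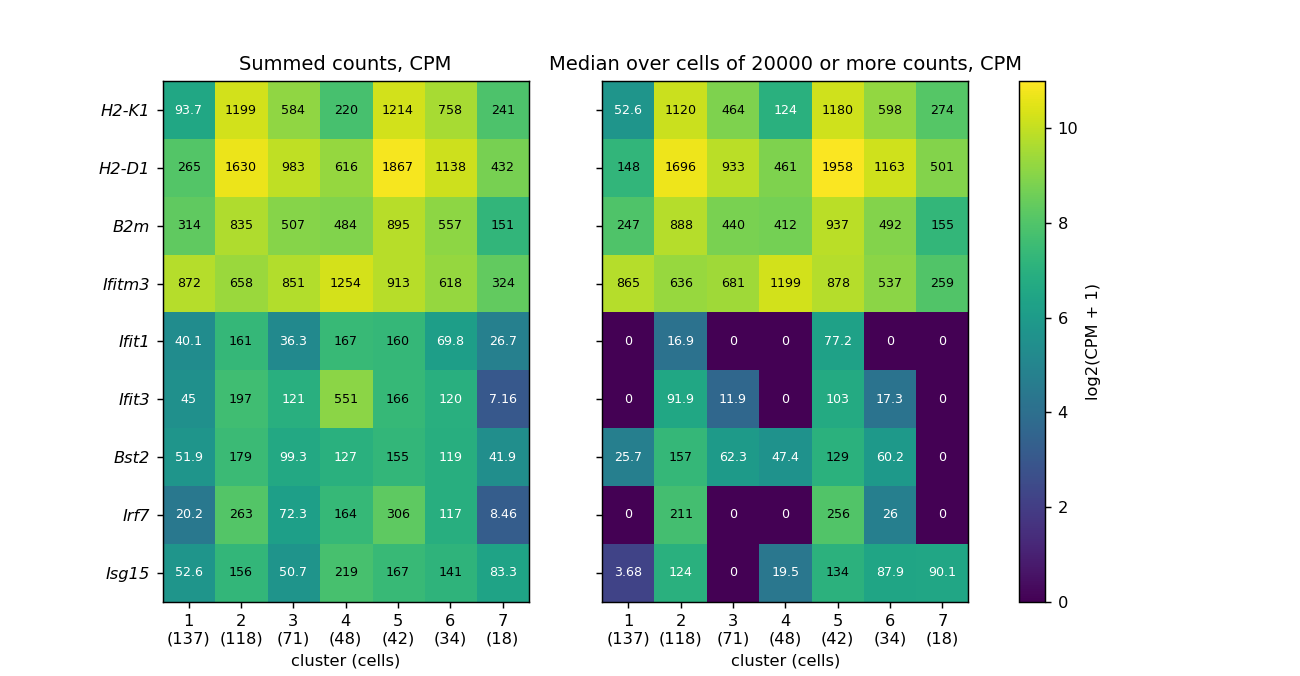
Level of each gene in the 7 clusters, from summed counts (left) and as the median over cells of 20000 or more counts (right), printed in CPM and coloured by log2(CPM + 1). Cell numbers stand under the cluster numbers. The MHC class I genes are highest in clusters 2 and 5, which carry endothelial markers, and for *Ifit3* in cluster 4 the sum (551 CPM) and the median cell (0) part ways.

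Since most injured tdTomato+EGFP+ cells fell in cluster 1, which held 10 cells of each uninjured group, injury was compared within the clusters that held 10 or more cells of several groups. In the fibroblast-like cluster 3, *H2-K1* was at 705 CPM (688 to 723) among 26 uninjured tdTomato+EGFP+ cells, 358 CPM (341 to 376) among 18 injured tdTomato+EGFP+ cells and 528 CPM (508 to 548) among 19 injured tdTomato-EGFP+ cells. *Ifitm3* in the same cells was at 520.4 CPM (505 to 536), 1718 CPM (1680.1 to 1757) and 834 CPM (809 to 860.1). In the endothelial-marked cluster 5, *H2-K1* was at 1285 CPM (1256 to 1314) among 18 uninjured tdTomato+EGFP+ cells, 1639 CPM (1592 to 1687) among 11 uninjured tdTomato-EGFP+ cells and 702 CPM (672 to 733) among 12 injured tdTomato-EGFP+ cells. *Ifitm3* was at 750.4, 679.8 and 1414 CPM. With 10 cells required, injury could be compared within a sort only for tdTomato+EGFP+ cells in cluster 3 and tdTomato-EGFP+ cells in cluster 5. In both of these comparisons *H2-K1* was lower and *Ifitm3* higher in injured cells, with the plates not separated. The *H2-K1* difference in cluster 3 was far smaller than in the group sums. Within cluster 1 itself, *H2-K1* was at 68.1 CPM (64.97 to 71.3) among 100 injured tdTomato+EGFP+ cells and 232 CPM (219 to 246) among 17 injured tdTomato-EGFP+ cells. The 10 uninjured cells of each sort in that cluster were too shallow for a comparison, with 41 and 36 *H2-K1* counts in all, of which 1 cell held 87.8% and 77.8%, for 449.7 CPM (323 to 610.1) and 67.2 CPM (47.1 to 93.1).

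The rest of the pathway was read from lists of its parts, whose counts stand against the 34.1% (tdTomato+EGFP+) and 16.3% (tdTomato-EGFP+) of all genes that were called lower after injury. Counts with TMM scaling, where the shares were 21.4% and 11.9%, are given beside them where they differ by over 1.5 times. Interferon ligands were nearly undetected: 10 genes, *Ifnb1* and *Ifng* among them at 0, had 41 of 122072211 counts, and the highest, *Ifna4* in uninjured tdTomato-EGFP+ cells, was at 0.372 CPM. Receptors and signal transducers were called lower for 9 of 11 measured genes in tdTomato+EGFP+ cells after injury (5 with TMM scaling). Among them were *Il10rb*, a shared chain of the lambda interferon and IL-10 receptors (-3.49), *Irf9* (-2.10) and *Tyk2* (-1.59), and *Ifngr2*, a chain of the gamma interferon receptor, was called higher (1.59). In tdTomato-EGFP+ cells *Il10rb* (-2.27) and *Irf9* (-1.35) were called lower and *Ifngr2* higher (1.70). *Irf9* was lower in both injured groups, at 42.2 and 81.4 CPM against 185 and 208 CPM.

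Sensors of nucleic acid were called lower in 6 of 12 measured genes in tdTomato+EGFP+ cells after injury, among them the RNA sensors *Ifih1* (-2.08) and *Tlr3* (-1.82) and the regulator *Dhx58* (-1.52), and in 1 higher (2 with TMM scaling). In tdTomato-EGFP+ cells *Ifih1* (-1.02) and *Dhx58* (-1.01) were the 2 called lower of 11 (0 with TMM scaling). The adaptor of cytosolic DNA sensing, counted under *Sting1|Tmem173*, was called higher in both populations, by 1.25 and 1.75. Of 3 other measured IRF factors, *Irf2* was called lower in tdTomato+EGFP+ cells (-2.23) and none in tdTomato-EGFP+ cells. Negative regulators were called lower for 4 of 6 genes in tdTomato+EGFP+ cells (1 with TMM scaling), with the ISG15 protease *Usp18* at -1.75 and the RNA editor *Adar* at -1.40, and for 2 of 6 in tdTomato-EGFP+ cells (*Adar*, -1.24, and *Pias1*, -1.21).

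Among 35 other interferon-stimulated genes measured in tdTomato+EGFP+ cells, 26 were called lower after injury and 1 higher (2 with TMM scaling), with a list median of -1.73 against -0.57 over all genes. The largest were *Uba7*, the activating enzyme for ISG15 (-3.17), *Rsad2*, which encodes viperin (-2.99), *Cmpk2* (-2.86) and *Sp100* (-2.49). The gene called higher was *Ifitm2* (1.01), a paralog and neighbour of *Ifitm3*. It was at 368, 319, 744 and 517 CPM, and *Ifitm1* was at 369.7, 281, 464 and 471 CPM. *Ifitm1* was called in neither population and *Ifitm2* not in tdTomato-EGFP+ cells (0.69), and reads of these similar genes may have been exchanged in counting. In tdTomato-EGFP+ cells 11 of 34 genes were called lower (6 with TMM scaling), such as *Ddx60* (-1.89), *Uba7* (-1.82), *Rsad2* (-1.70) and *Sp100* (-1.52), and *Lgals3bp*, which encodes a secreted glycoprotein, was the 1 called higher (1.33), against 2 with TMM scaling. Between the injured populations 12 of 33 were called lower in tdTomato+EGFP+ cells (7 with TMM scaling) and 0 higher, against 18.6% of all genes called lower there (12.8% with TMM scaling), led by *Phf11d* (-2.47) and *Ifit2* (-2.27). *Cmpk2* was the only one of 35 called between the uninjured populations (1.03).

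Genes linked to gamma interferon were called lower for 9 of 11 in tdTomato+EGFP+ cells after injury, with the GTPases *Ifi47* (-3.55), *Tgtp1* (-3.20) and *Gbp7* (-2.76) and the checkpoint ligand *Cd274* (-2.82), and for 5 of 11 in tdTomato-EGFP+ cells. The gene called higher in both was the T cell chemoattractant *Cxcl10*. It had 1 and 3 counts in the uninjured groups and was at 20.3 CPM (18.7 to 21.9) in injured tdTomato+EGFP+ and 52.6 CPM (49.9 to 55.5) in injured tdTomato-EGFP+ cells, on both plates of each. Those counts came from 14 and 16 cells, and the cells with the most *Ifit3* described above were among them. A single cell held 48.8% of them in the tdTomato+EGFP+ group and 53.3% in the tdTomato-EGFP+ group, and without it (a step added after seeing the data) *Cxcl10* was at 10.5 CPM (9.37 to 11.7) and 24.8 CPM (22.9 to 26.8). *Cxcl9* and *Cxcl11* stayed under 1 CPM in every group.

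In tdTomato+EGFP+ cells the antigen-processing list held genes called in both directions after injury, where 34.1% of all genes were called lower and 11.4% higher. Of 14 genes, 6 were called lower in tdTomato+EGFP+ cells after injury, led by *Nlrc5*, the transactivator of MHC class I genes (-3.78), the immunoproteasome subunit *Psmb9* (-3.19), the peptide transporter *Tap2* (-2.33) and *Tapbpl*, a tapasin-related peptide editor (-2.19). *Nlrc5* was at 16.7 and 17.3 CPM in the uninjured groups, 0.289 CPM in injured tdTomato+EGFP+ and 3.20 CPM in injured tdTomato-EGFP+ cells. Its level in injured tdTomato+EGFP+ cells was thus near the floor. The general folding factors of the endoplasmic reticulum went the other way, with *Calr* (1.30) and *Pdia3* (1.03) called higher. In tdTomato-EGFP+ cells *Nlrc5* (-2.13) and *Psmb9* (-1.86) were the 2 of 14 called, both lower, against 16.3% of all genes called lower. Between the injured populations 6 of 13 were called lower in tdTomato+EGFP+ cells, led by *Tap2* (-1.75), against 18.6% of all genes.

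Most other MHC class I genes were lower too. In tdTomato+EGFP+ cells 7 of 9 measured genes were called lower after injury and 0 higher, with a list median of -2.62. *H2-Q6* (-5.11), *H2-T24* (-3.31), *H2-Q4* (-3.20) and *H2-Q7* (-2.93) were the largest. In tdTomato-EGFP+ cells 4 of 9 were called lower, again *H2-Q6* (-3.61), *H2-Q7* (-2.88), *H2-T24* (-2.80) and *H2-Q4* (-1.14). These genes are similar in sequence to one another and to *H2-K1* and *H2-D1*, and the split of their reads is uncertain. *Cd1d1*, also on this list, stayed under 10 CPM in every group and so could not be called. It went the other way, at 0.365 and 0 CPM in uninjured tdTomato+EGFP+ and tdTomato-EGFP+ cells and 9.80 and 5.62 CPM in the injured ones. MHC class II genes were near the floor, with *H2-Eb1* the 1 gene of 7 at 10 CPM or more, at 10.3 CPM in uninjured tdTomato+EGFP+ cells.

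**Figure D5:**
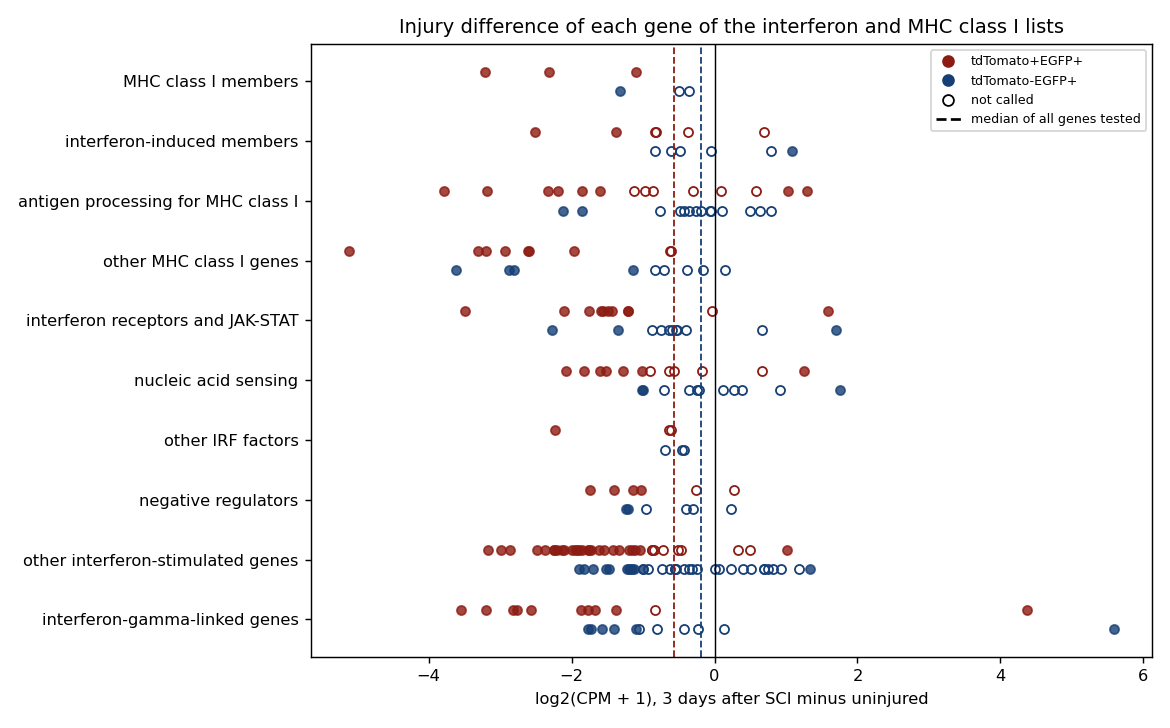
Difference between cells 3 days after SCI and uninjured cells (log2(CPM + 1)) for every gene at 10 CPM or more of the 9 genes and of 8 pathway lists, with the tdTomato+EGFP+ sort in red and the tdTomato-EGFP+ sort in blue. Filled points were called, open points were not, and dashed lines mark the medians of all genes tested (-0.57 and -0.19). Most red points lie left of their line, and *Cxcl10*, among the genes linked to gamma interferon, lies farthest to the right in both colours (4.37 and 5.59).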

How the data were processed

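Single perivascular cells had been sorted into 384-well plates and sequenced by Smart-seq3. The authors deposited counts per gene and cell, and the labels name mm10; the aligner, the annotation, and whether reads or molecules were counted are not given in the sources used here. Of 1968 cell columns, 1465 matched no label and were not used. Cells with at least 200 genes and under 20% mitochondrial counts were kept (502 of 503 labelled cells), and 34 cells with *Pecam1* above 1 on ln(1 + counts per 10000) and above *Pdgfrb* were removed, a cutoff modelled on the study's filters. Its upper limit of 1200 genes, which would leave 33 cells, was an alternative. The 92 spike-in rows took 0.0314% of counts.

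Deposited counts were summed per sorted population, treatment and plate and given as CPM, with exact 95% intervals. Since no label names an animal, no test was run. Genes were called at log2 1 or more on log2(CPM + 1) with 10 CPM or more in the higher group and 1 direction on all plates or plate pairs, and 1644 symbols with counts on plate 211 alone, or on the other plates alone, were left out of the genes tested (chosen after seeing the data). Those include 4 list genes (*C1qa*, *Gbp5*, *Gbp6* and *Mx2*). Sums weight plates by depth, so a summed difference can lie outside the plate range. The code for the differences and the call rule was checked on simulated sums. These were Poisson counts from a pooled profile with set fold changes, without plate effects or dominant cells. The check therefore says nothing about errors from those sources. Cells were clustered in Seurat 5.3.0 (R 4.3.3; 2000 variable genes, 20 components, resolution 0.5) without the genes of the lists, and doublets were not called beyond the sort gates. TMM factors came from edgeR 4.0.16 and size factors from DESeq2 1.42.0; other steps used Python 3.11.15 with numpy 2.4.6, pandas 2.3.3 and scipy 1.17.1. The 9 genes, the pathway lists and the markers were chosen with earlier results of these data known. Named genes are the 9 members, at most 4 called genes for each list and comparison, largest first, and the 5 genes most like each set. The *Ifitm* and *Ifit3b* paralogs, *Cxcl9*, *Cxcl11*, *Ifna4*, *Cd1d1* and single markers were named beyond this rule after their values were seen. One gene that the rule would name is not reported here.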

Additional observations from a re-analysis of the deposited data

Results flagged for a closer look

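The 34 cells removed as endothelial, which entered no comparison, held 8 of the 9 genes above the level of every kept group, 7 of them with intervals apart. *H2-K1* was at 1472 CPM there, *H2-D1* at 2002, *B2m* at 978, *Ifit1* at 239.7, *Bst2* at 236, *Irf7* at 348 and *Isg15* at 176 CPM. *Ifit3*, at 212 CPM (203 to 222), overlapped the interval of injured tdTomato-EGFP+ cells. Of these cells 32 were uninjured.

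*Ifit3* differed after injury by -0.37 in tdTomato+EGFP+ and by 0.79 in tdTomato-EGFP+ cells, with every plate pair of one population opposite in sign to every pair of the other. The difference was not tested, neither value was called, and with TMM scaling the value in tdTomato+EGFP+ cells was 0.18.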

How the results depend on the processing

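Medians of the MHC class I genes and of the inducible genes changed sign in 3 alternatives, and 35 moved them by more than the spread between plates. Differences of single genes kept their sign in 527 of 567 alternatives. TMM and DESeq2 scaling brought the median of all genes from -0.57 in injured tdTomato+EGFP+ cells to -0.040 and -0.059. For injury in tdTomato+EGFP+ cells the MHC class I median of -2.32 was -1.77 with TMM, -1.79 with DESeq2 factors and -0.031 under the 1200-gene limit. The inducible median of -0.83 was -0.29, -0.30 and -2.53 in that order, and -1.34 without the top cells. In tdTomato-EGFP+ cells the MHC class I median of -0.49 was -0.28 with TMM and 0.14 without endothelial-marked cells. The inducible median of -0.27 was -0.061 with TMM, -0.13 with DESeq2 factors, 0.53 as a mean over cells, 0.32 without endothelial-marked cells, -0.47 without leukocyte-marked cells and -0.42 without the top cells. Between the injured populations the inducible median of -0.67 was -0.35, -0.33, -1.17 (mean over cells) and -0.016 (without endothelial-marked cells). Between the uninjured populations the MHC class I median of 0.16 was 0.11 with DESeq2 factors, 0.42 under the 1200-gene limit, 0.84 without endothelial-marked and 0.12 without leukocyte-marked cells. The inducible median of 0.11 was 2.63 under that limit and 1.37 without endothelial-marked cells. For the difference of the injury effects, the MHC class I median of -1.83 was -1.07 as a mean over cells, and the inducible one of -0.84 was -0.45 with DESeq2 factors, -1.35 as a mean over cells and -1.36 without endothelial-marked cells. *Irf7* turned to 0.014 between the injured populations without endothelial-marked cells, and *H2-K1* to 0.42 under the 1200-gene limit in tdTomato+EGFP+ cells. The cause was not tested for any of these.

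Leaving out each plate gave MHC class I and inducible medians of -2.80 to -2.21 and -1.25 to -0.62 for injury in tdTomato+EGFP+ cells, and of -0.63 to -0.42 and -0.32 to -0.030 in tdTomato-EGFP+ cells. It gave -2.21 to -1.21 and -0.89 to -0.63 between the injured populations, 0.12 to 0.16 and 0.02 to 0.22 between the uninjured ones, and -2.37 to -1.31 and -1.07 to -0.54 for the difference of the effects. A resolution of 0.3 gave 3 clusters. The 1200-gene limit left 0 injured tdTomato-EGFP+ cells and gave no value there. No paired analysis was possible because no result comes from a test. Both sorts shared each plate, and their differences are given per plate.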
